A study of Homo sapiens with 4 samples.

Results

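The 10 genes described here are grouped around ATF4 and CHOP, factors of the integrated stress response. They comprise transcription factors (ATF4, ATF5, ATF6, DDIT3 or CHOP, CEBPB and CEBPG), tribbles pseudokinases (TRIB1, TRIB2 and TRIB3) and the chromatin-associated stress protein NUPR1. They were taken by gene symbol from a table of 18417 genes measured on 4 single-colour whole-transcript arrays, and all 10 were found. For a gene with several probe sets, the one with the highest mean was used, which concerned ATF4 alone among these genes. The arrays hold HOS and U2-OS cells, established human osteosarcoma lines, each exposed to OGE at 0 or 600 μg/mL for 24 h, with 1 array for each combination. The 0 μg/mL arrays are the controls of their own line, and what OGE stands for is not spelled out in the labels. The design addresses how gene expression in these lines differs with OGE.

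When cells lack amino acids, misfold proteins or suffer other stress, kinases phosphorylate the translation factor eIF2. Most protein synthesis then slows, while the ATF4 message is translated more, and ATF5 and DDIT3 messages are controlled in a similar way. ATF4 pairs with C/EBP proteins to drive genes of amino acid supply and its own partners DDIT3 and TRIB3, and TRIB3 restrains ATF4 and DDIT3 in return. ATF6 belongs to another arm, in which a membrane-bound protein is cut and released when the endoplasmic reticulum is overloaded. An array reads RNA, so neither translation nor cleavage is seen in these values.

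ATF4 and C/EBP partners bind a composite C/EBP-ATF response element, searched here as TGATGNAA on both strands in the 250 bases before each annotated start. RefSeq promoter windows (GRCh38.p14) were matched for 8 of the genes, over 16 starts; windows of NUPR1 and TRIB1 were not used here. Only CEBPG among these 8 held these letters, from 42 to 35 bases before a start, against 3.89% of 27305 genes. Elements with other letters or outside the 250 bases were not searched, so a window without a match does not mean a gene without the element. The exact letters of the cAMP response element, TGACGTCA, were found in 2.03% of genes and in none of the 8. Those of the ER stress element, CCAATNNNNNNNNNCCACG, were found in 0.0916% of genes and also in none of the 8. The DDIT3 window comes close to them on each strand, with ccact and gcacg where the searched letters have CCACG. Near matches were not searched, so the lack of an exact match does not mean that DDIT3 lacks the ER stress element. The CCAAT box, which is also the first part of the ER stress element, was found in 37.0% of genes and in DDIT3, CEBPB and CEBPG among these 8. In CEBPG it lies before another start than the C/EBP-ATF match, so it is not in the CEBPG window shown. Windows of 3 genes are shown, that of CEBPG for its match and those of DDIT3 and TRIB3 because their RNA changed most, with matches in capitals (in the DDIT3 window the second CCAAT box is on the other strand). They lie at chr19:33373863-33374112 on the plus strand, chr12:57520515-57520764 on the minus strand and chr20:381045-381294 on the plus strand, and TRIB3 has no capitals because none of these letters were found there.
CEBPG: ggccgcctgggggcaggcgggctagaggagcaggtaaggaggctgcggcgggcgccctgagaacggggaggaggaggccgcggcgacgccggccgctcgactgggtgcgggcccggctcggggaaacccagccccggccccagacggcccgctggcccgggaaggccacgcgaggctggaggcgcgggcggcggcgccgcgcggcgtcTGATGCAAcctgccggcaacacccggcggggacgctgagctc
DDIT3: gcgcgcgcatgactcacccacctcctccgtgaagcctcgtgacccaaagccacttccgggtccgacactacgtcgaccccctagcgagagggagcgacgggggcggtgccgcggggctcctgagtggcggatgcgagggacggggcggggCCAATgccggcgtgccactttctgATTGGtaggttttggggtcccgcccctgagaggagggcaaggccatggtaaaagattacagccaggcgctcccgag
TRIB3: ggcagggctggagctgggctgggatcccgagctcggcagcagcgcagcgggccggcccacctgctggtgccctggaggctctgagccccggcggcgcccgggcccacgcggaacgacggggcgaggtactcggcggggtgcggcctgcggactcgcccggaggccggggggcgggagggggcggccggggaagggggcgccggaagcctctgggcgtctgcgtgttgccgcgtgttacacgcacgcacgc

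OGE arrays carried more RNA of most of these genes than control arrays, above all of TRIB3 and DDIT3. With its sign kept, the U2-OS change exceeded the HOS change in 7 of the 10. A gene was called by size when its log2 difference was at least 1, which is 2-fold, and its higher value was at or above the median of that array. By this rule 2 of the 10 genes, DDIT3 and TRIB3, were higher in HOS and none was lower, against 1.70% and 2.18% of 11333 genes at the floor. In U2-OS 5 were higher, DDIT3, TRIB3, TRIB1, NUPR1 and CEBPB, and 1, TRIB2, was lower, against 2.94% and 7.88% of 11506 genes. DDIT3 and TRIB3 were higher in both lines, as were 0.768% of 10810 genes that passed the floor in each line, while 1.09% were lower in both and none of these 10. The 10 had a median change of 0.47 in HOS and 1.14 in U2-OS, against 0.02 and 0.03 over all genes. All 10 passed the floor in each line. They were chosen with earlier results of these data known, so their shares are no independent test. With 1 array per condition there is no test within a line, and fewer cells of a state and less RNA per cell cannot be told apart in such bulk samples.

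Across the lines, limma was fitted with cell line as a term, so that each line served as a repeat of the comparison. It called none of the 10 and 0% of all 18417 genes at an adjusted p under 0.05. At an unadjusted p under 0.05 limma gave 7 of the 10 and 14.2% of all genes. The smallest adjusted p in limma was 0.228, over all genes and, for TRIB3, among these 10. Quantile normalization of the deposited values moved this result, and limma then called 1.43% of genes, TRIB3 the only one of the 10 among them.

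**Figure D1:**
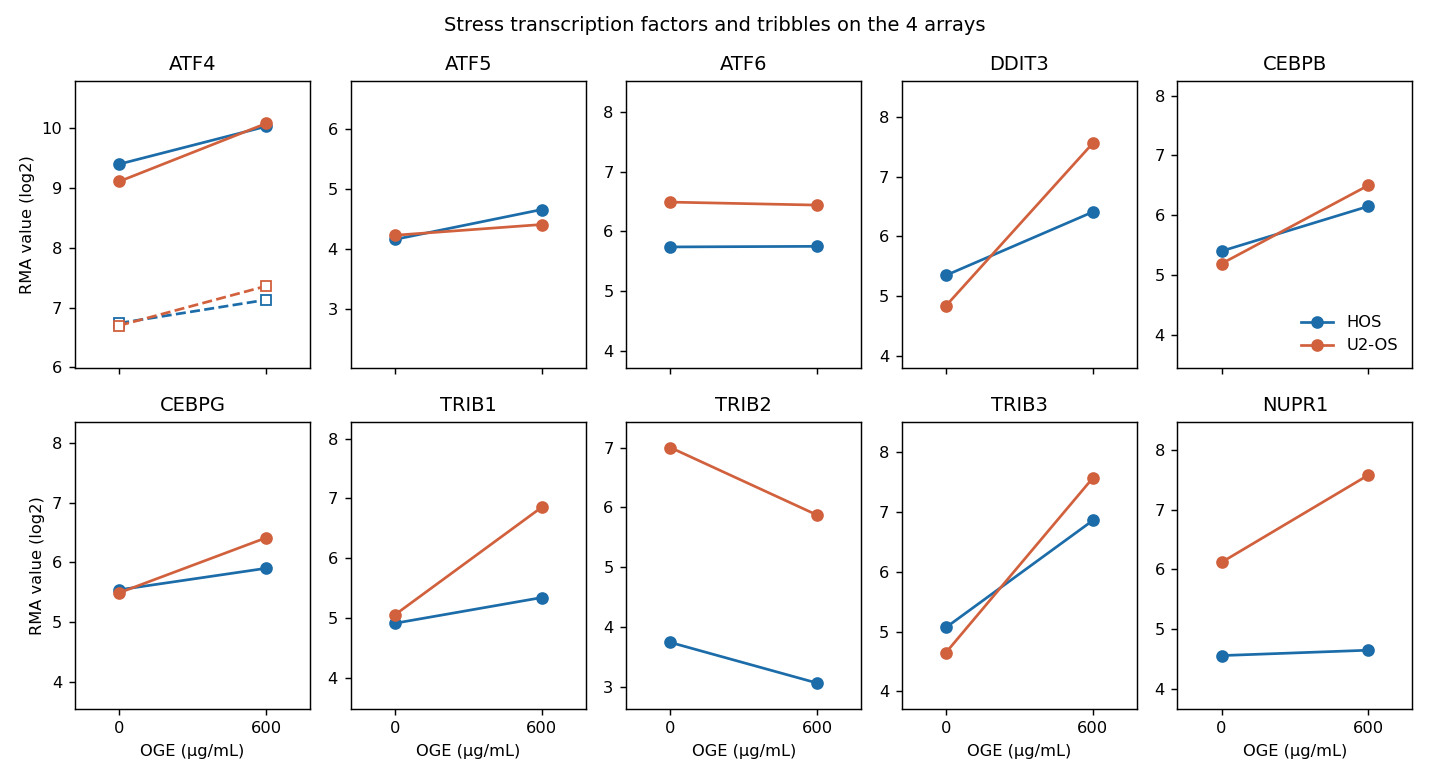
RMA values (log2, vertical axis, a span of equal height in each panel) of the 10 genes at 0 and 600 μg/mL OGE, with 1 point per array and a line joining the arrays of a cell line. Dashed lines with open squares are the other ATF4 probe set. DDIT3 and TRIB3 climb in both lines, TRIB1 and NUPR1 mainly in U2-OS, and TRIB2 lies lower with OGE in each line.

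ATF4, the factor at the centre of the response, read 9.40 in HOS control, 10.03 in HOS with OGE, 9.11 in U2-OS control and 10.08 in U2-OS with OGE, on the log2 scale. Both OGE arrays lay above both controls. HOS changed by 0.63 and U2-OS by 0.97, a mean of 0.80 ± 0.24 (SD, n = 2 lines), and the limma adjusted p was 0.246. Neither change reached the size threshold, but after quantile normalization the U2-OS change was 1.19, and with cyclic loess 1.12, which does reach it. A second ATF4 probe set, annotated to another transcript accession, read 6.74 and 7.13 in HOS and 6.70 and 7.36 in U2-OS. Its changes of 0.39 and 0.66 had the same direction and were smaller.

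ATF5, a relative of ATF4 that is also under translational control, read 4.16 and 4.66 in HOS without and with OGE and 4.23 and 4.41 in U2-OS. Its changes of 0.50 and 0.18 stayed below the size threshold, and here the HOS change was the larger. ATF6, the sensor of the other arm, read 5.74 and 5.75 in HOS and 6.49 and 6.44 in U2-OS. These changes of 0.01 and -0.05 were the smallest of the 10 genes in size in each line, and the values carry 2 decimals, so the HOS change is a single step of 0.01.

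DDIT3 encodes CHOP, a C/EBP relative linked to cell death under prolonged stress. It read 5.35 in HOS control and 6.41 with OGE, and 4.84 in U2-OS control and 7.56 with OGE. The U2-OS array with OGE was the highest of the 4 and the U2-OS control the lowest. The changes were 1.06 in HOS (2.08-fold) and 2.72 in U2-OS (6.59-fold), a mean of 1.89 ± 1.17 (SD, n = 2 lines), with a limma adjusted p of 0.245. Among the 10810 genes that passed the floor in each line, ordered from the largest rise, DDIT3 ranked 143 in HOS and 19 in U2-OS. The HOS call sits just above the threshold and was lost at 3-fold.

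CEBPB, a dimer partner of ATF4 and CHOP, read 5.40 and 6.15 in HOS and 5.19 and 6.50 in U2-OS. Both OGE arrays were above both controls, with changes of 0.75 and 1.31, the second called by size. The mean was 1.03 ± 0.40 (SD, n = 2 lines) and the limma adjusted p was 0.232. CEBPG, a short C/EBP protein that heterodimerises with ATF4, read 5.54 and 5.90 in HOS and 5.49 and 6.41 in U2-OS. Its arrays had the same order as those of CEBPB, lowest in U2-OS control and highest in U2-OS with OGE, but its changes of 0.36 and 0.92 were not called. Its limma adjusted p was 0.318, and its promoter window is the one shown with the C/EBP-ATF response element.

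TRIB3, the pseudokinase that ATF4 and CHOP induce and that restrains them, read 5.07 in HOS control and 6.86 with OGE, and 4.65 in U2-OS control and 7.57 with OGE. Both OGE arrays stood well above both controls. The changes were 1.79 (3.46-fold) and 2.92 (7.57-fold), the largest of the 10 genes in each line, with a mean of 2.36 ± 0.80 (SD, n = 2 lines). TRIB3 ranked 25 in HOS and 17 in U2-OS among the 10810 genes. Its limma adjusted p of 0.228 became 0.0298 after quantile normalization, within a range of 0.0298 to 0.761 over 6 alternatives, and its sign was positive in each line.

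The other tribbles did not follow this pattern. TRIB1, an adaptor that brings the ubiquitin ligase COP1 to C/EBP alpha, read 4.91 and 5.34 in HOS and 5.05 and 6.85 in U2-OS. The U2-OS array with OGE stood apart from the other arrays, which lay within 0.43 of each other. TRIB1's change was 0.43 in HOS, not called, and 1.80 in U2-OS (3.48-fold), which ranked 66 of 10810. TRIB2, an adaptor of the same kind, read 3.74 and 3.06 in HOS and 7.0 and 5.87 in U2-OS. It was the only one of the 10 that was lower with OGE by size, with -1.13 in U2-OS, while HOS had -0.68 and an OGE value below the array median. The mean change of TRIB2 was -0.91 ± 0.32 (SD, n = 2 lines), with a limma adjusted p of 0.239.

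NUPR1, a small protein induced by many stresses and a cofactor at stress gene promoters, read 4.56 and 4.65 in HOS and 6.12 and 7.58 in U2-OS. Both U2-OS arrays were above both HOS arrays. HOS changed by 0.09 and U2-OS by 1.46 (2.75-fold), so the call by size was made in U2-OS only, and the limma adjusted p over the lines was 0.426. The U2-OS change of NUPR1 ranked 109 of 10810.

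**Figure D2:**
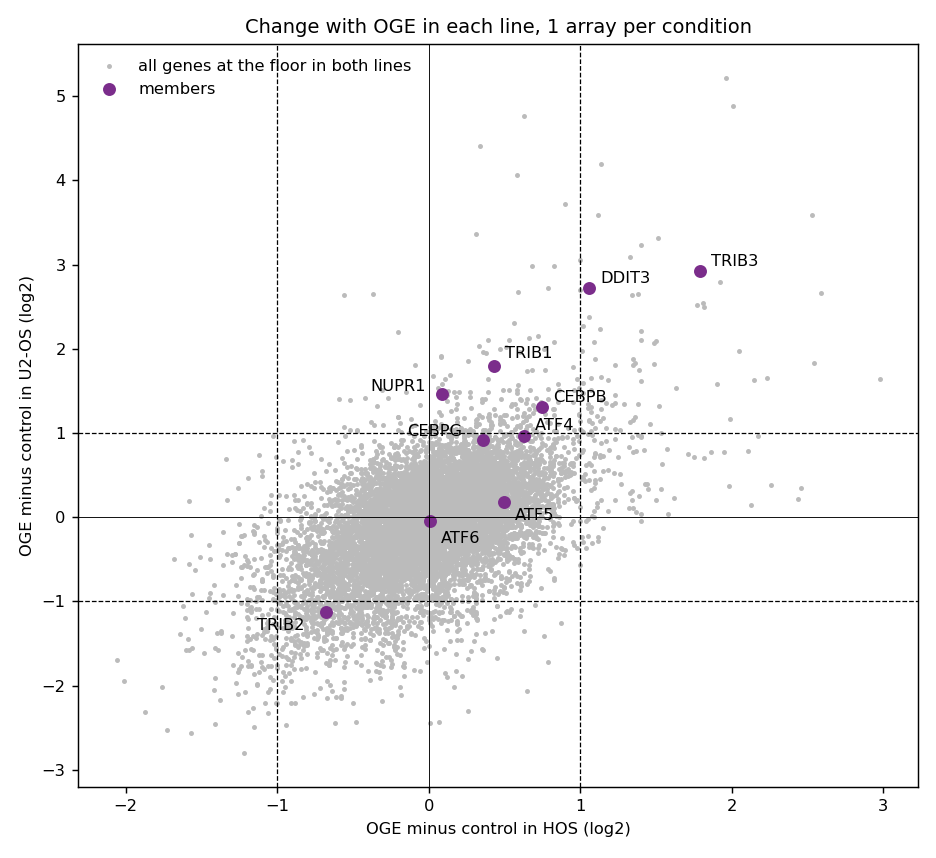
Change with OGE in HOS (horizontal axis, log2) against change in U2-OS (vertical axis, log2) for the 10810 genes past the floor in each line (grey) and the 10 members (purple); dashed lines mark the 2-fold threshold. DDIT3 at 1.06 and 2.72 and TRIB3 at 1.79 and 2.92 lie past it in both lines, and ATF6 lies at the centre of the cloud.

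With its sign kept, the change in U2-OS exceeded that in HOS in 7 of the 10 genes, and ATF5, ATF6 and TRIB2 were the exceptions. In size, TRIB2 changed more in U2-OS (-1.13 against -0.68 in HOS), as did ATF6 (-0.05 against 0.01). Over all genes the share with the larger signed change in U2-OS was 48.7%. The U2-OS change minus the HOS change was 1.66 for DDIT3, 1.37 for TRIB1 and for NUPR1, 1.13 for TRIB3, 0.56 for CEBPB and for CEBPG and 0.34 for ATF4. It was -0.32 for ATF5, -0.06 for ATF6 and -0.45 for TRIB2. With 1 array per condition, no test of this difference is possible.

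Without OGE, U2-OS and HOS differed by less than 2-fold in 8 of these genes, and TRIB2 and NUPR1 were the exceptions. TRIB2 was higher in U2-OS by 3.26 without OGE (9.58-fold) and by 2.81 with it (7.01-fold), a mean of 3.04 ± 0.32 (SD, n = 2 states). In HOS, TRIB2 read 3.74 without OGE and 3.06 with it, against array medians of 3.6 and 3.62. With OGE it thus passed the floor only through U2-OS, and the size of the line difference rests on low HOS values. Limma gave an adjusted p of 0.0270 for TRIB2, the only one of the 10 called, against 1.92% of all genes; over 6 alternatives the adjusted p in limma ran from 0.000273 to 0.0669, the highest without OGE as a term, which ended the call. NUPR1 was higher in U2-OS by 1.56 (2.95-fold) and 2.93 (7.62-fold), with a limma adjusted p of 0.0657, above the threshold of 0.05. In 4 of 6 alternatives NUPR1 was called, with limma adjusted p from 0.00544 to 0.133 over the 6. TRIB2 and NUPR1 were the 2 genes called by size as higher in U2-OS in both states, against 3.0% of 11069 genes higher and 3.17% lower, and none of the 10 was lower.

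ATF6 was higher in U2-OS by 0.75 and 0.69, with a limma adjusted p of 0.113. After quantile normalization its adjusted p in limma was 0.0493, within a range of 0.0493 to 0.169 over the alternatives, where 9.57% of all genes were called. For ATF4, CEBPB, CEBPG, DDIT3 and TRIB3 U2-OS minus HOS was below 0 in the controls, at -0.29, -0.21, -0.05, -0.51 and -0.42, and above 0 with OGE, at 0.05, 0.35, 0.51, 1.15 and 0.71. For these 5 genes the limma adjusted p for a line difference averaged over both states lay between 0.641 and 0.911. Opposite signs offset each other in that average, so these p-values do not address a line difference in either state alone. TRIB1 differed by 0.14 without OGE and by 1.51 with it, and ATF5 by 0.07 and -0.25.

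**Figure D3:**
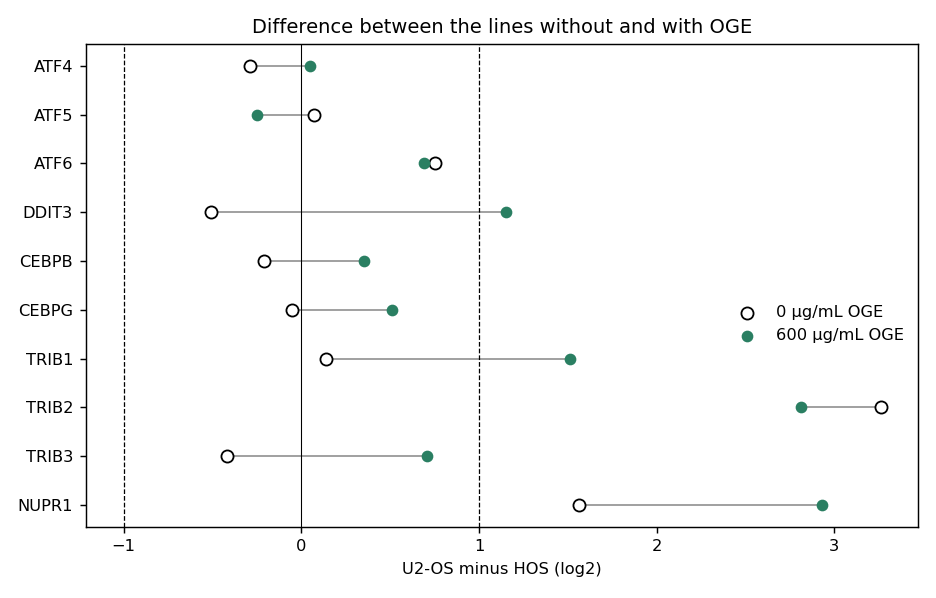
U2-OS minus HOS (horizontal axis, log2) for each of the 10 genes at 0 μg/mL OGE (open circles) and at 600 μg/mL (filled circles), 1 array on each side of a difference; dashed lines mark 2-fold. TRIB2 and NUPR1 lie past it in both states, and DDIT3 and TRIB1 only with OGE, at 1.15 and 1.51.

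Genes that ATF4 and CHOP are known to drive were higher with OGE more often than lower. The list, like those below, was chosen with earlier results of these data known. Its counts therefore describe these arrays and are no independent test. Of 43 measured genes of the list, 15 passed the size rule upwards in HOS and 13 did so in U2-OS, 8 of them shared, and none was lower. The shares over all genes at the floor were 1.70%, 2.94% and 0.768%. HOS had a median change of 0.67 and U2-OS of 0.57, against 0.02 and 0.03 over all genes. Limma called none of the 43 over all genes, with 24 at an unadjusted p under 0.05, against 14.2% of all genes. After quantile normalization limma called 9 of them, against 1.43% of all genes. Among the 8 genes higher in both lines were GDF15, a stress cytokine (1.96 in HOS and 5.22 in U2-OS), DDIT4, an mTORC1 inhibitor (2.01 and 4.89), and PPP1R15A, the subunit that directs a phosphatase to eIF2 (2.53 and 3.59). CTH, an enzyme of cysteine synthesis, changed by 1.77 and 2.52, and SLC3A2, the shared heavy chain of amino acid transporters, by 1.49 and 1.82. The CTH controls (2.94 in HOS and 2.63 in U2-OS) and the GDF15 control in HOS (2.61) lay below their array medians. There these genes passed the floor only through the OGE array, and the size of their change rests on a low control value. SESN2, which links leucine to mTORC1, changed by 1.09 and 2.08, the growth factor VEGFA by 1.23 and 1.81, and the glutamine transporter SLC1A5 by 1.00 and 1.05. The HOS change of SLC1A5 lies exactly at the size threshold. Among 34 of these genes with a promoter window, 8 held TGATGNAA, against 3.89% of 27305 genes. The median change of those 8 was 0.66 in HOS and 0.63 in U2-OS, and that of the other 26 was 0.67 and 0.53.

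The targets of ATF6 and of the ER stress element, mostly chaperones of the endoplasmic reticulum, mostly read lower with OGE, with changes above 0 for 4 of 18 in HOS and 6 in U2-OS. Of 18 measured, none passed the size rule in HOS, while in U2-OS 2 were higher and 4 lower, against 2.94% and 7.88% of genes at the floor. The medians were -0.33 and -0.36. HSP90B1, an ER chaperone of the HSP90 family, had changes of -0.97 and -1.94, and the disulfide isomerases PDIA6 and PDIA4 had -0.98 and -1.02 and -0.80 and -1.11. HERPUD1, a part of the ER degradation machinery, had 0.80 and 1.12. Limma called none of the 18, and 8 had an unadjusted p under 0.05, against 14.2% of all genes.

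Of 12 upstream sensors and switches, none passed the size rule in HOS and 2 were lower in U2-OS, against 7.88% of genes at the floor, with medians of -0.12 and -0.57. EIF2AK4 (GCN2), the eIF2 kinase that senses uncharged tRNA, had changes of -0.91 and -1.46, and EIF2AK2 (PKR), the kinase for double-stranded RNA, of -0.54 and -1.04. PPP1R15B, the constitutive eIF2 phosphatase subunit, had 0.85 and 0.43, and MBTPS2, a protease that cuts ATF6, -0.50 and -0.51. Limma called none of the 12, with 5 at an unadjusted p under 0.05, against 14.2% of all genes.

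Among 23 other ATF, CREB and C/EBP family factors, 2 were higher by size in U2-OS, against 2.94% of genes at the floor, none in HOS and none lower, with medians of 0.09 and 0.34. ATF3, a repressor that ATF4 and CHOP pathways induce, changed by 0.68 and 2.98, and NFIL3, a basic leucine zipper repressor, by 0.12 and 1.45. ATF3 and JDP2 are also in the list of ATF4 and CHOP targets, and CEBPA is also among the tribbles partners. CREB3, a membrane-bound relative of ATF6, had 0.69 and 0.40, and the clock-linked factor TEF 0.35 and 0.50. Of 9 partners of tribbles proteins, 1 was lower in U2-OS, a share near the 7.88% of genes at the floor. It was ACACA, the first enzyme of fatty acid synthesis, with -0.67 in HOS and -1.16 in U2-OS. CEBPA, which TRIB1 and TRIB2 mark for degradation, had 0.24 and 0.56, and the kinases MAP2K1 and MAP2K4 had 0.17 and 0.68 and -0.39 and -0.30. Limma called none in either list, with 3 and 1 at an unadjusted p under 0.05, against 14.2% of all genes.

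**Figure D4:**
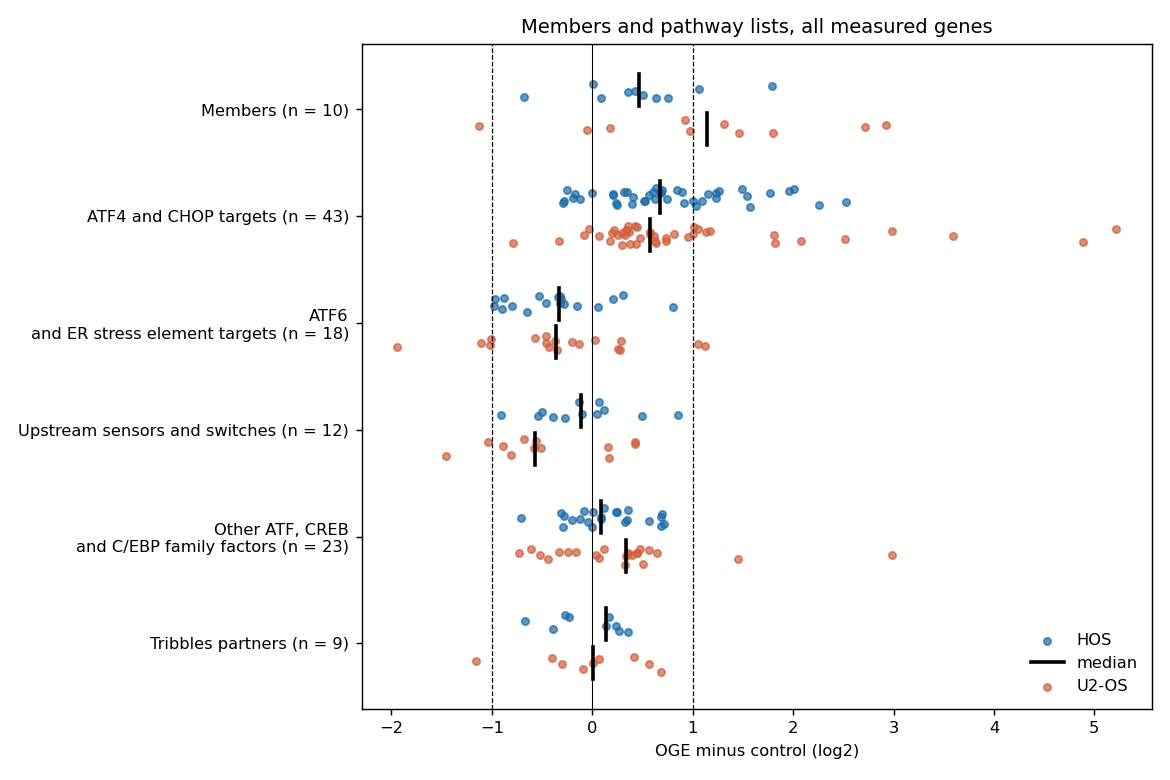
Change with OGE (horizontal axis, log2) of every measured gene of the member set and of 5 pathway lists, HOS in blue and U2-OS in orange, with black bars at the medians and dashed lines at 2-fold. The target genes of ATF4 and CHOP lie mostly above 0, with medians of 0.67 and 0.57, and those of ATF6 mostly below, with medians of -0.33 and -0.36.

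The genes most like DDIT3 and TRIB3 over the 4 arrays were found by the Euclidean distance between values after each gene's own mean was subtracted, among 10800 other genes past the floor in each line. Nearest to DDIT3 were BTG1, an antiproliferative gene, at a distance of 0.11, SPHK1, which makes sphingosine 1-phosphate, at 0.25, and AVPI1 at 0.28. BTG1 changed by 1.00 in HOS and 2.70 in U2-OS, SPHK1 by 1.06 and 2.38 and AVPI1 by 1.38 and 2.65. Nearest to TRIB3 were MXD1, a repressor of the MYC network, at 0.14, CTH at 0.29 and AVPI1 at 0.35. The CTH controls, 2.94 in HOS and 2.63 in U2-OS, lay below their array medians. MXD1 changed by 1.92 and 2.79. DDIT3 and TRIB3 lay 0.56 apart, a distance at which DDIT3 would rank 4 among the genes nearest to TRIB3, whereas ATF4 would rank 196. Values were not scaled, so a gene with smaller changes lies farther away even where its arrays have the same order. The 4 arrays had the same order in ATF4 as in TRIB3. Likeness over 4 arrays is a description of these arrays.

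Array medians lay between 3.58 and 3.62, and no array repeated another. Across the 33297 probe sets, the correlation of the control array with the OGE array was 0.980 for HOS and 0.968 for U2-OS. Of 8 measured osteoblast markers, 6 in each HOS array and 5 or 6 in the U2-OS arrays were at or above the array median, among them COL1A1, SPARC and RUNX2, while the late markers IBSP and SPP1 were below it on each array. The median change of the 8 osteoblast markers was -0.39 in HOS and -0.07 in U2-OS. COL1A1 had -0.94 and -1.75, SP7 had 0.38 and 0.10, and SPP1 had -0.01 and 0.74. None of 4 endothelial markers and 1 of 5 immune markers, the lysosomal protein CD68, reached the array median. CD68 changed by 1.05 and 1.35, while PTPRC read between 1.28 and 1.48. The summed log2 level of the immune markers was 12.60 and 13.65 in HOS and 11.51 and 13.65 in U2-OS, and its part in the results was not tested. Of 4 epithelial markers, 2 in HOS and 1 in U2-OS were at or above the array median.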

How the data were processed

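Total RNA of 4 samples, 1 per cell line and dose, was labelled with biotin and hybridised to whole-transcript arrays. The deposited log2 values come from RMA, as named without a version per the submitters' processing notes; the log base was read from their range, 0.16 to 13.41. RMA pulls low signals together and hides a shift of all genes. Of 33297 probe sets, 19460 have 1 symbol in the platform annotation of 2016, giving 18417 genes, with symbols updated by gene ID. No source used here gives the genome build of the array design.

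Differences were called at 2-fold with the higher value at the array median. Limma 3.58.1 in R 4.3.3 fitted cell line and OGE to all genes, with 1 residual degree of freedom and Benjamini-Hochberg adjustment. Nothing in the labels says the arrays came from separate cultures, so the p-values cover no more than the spread among 4 arrays, a number that limits precision. In this fit that spread is the difference between the responses of the 2 lines, not that of repeated arrays. It is moderated by a prior from all genes with 3.55 degrees of freedom. A gene that changed unequally in the lines thus gets a larger p. The script was tested on simulated data. Members and lists were chosen with earlier results of these data known. All members are named; of each pathway list, up to 4 genes with the largest mean change among those past the floor in both lines, any called in both lines, and the 3 genes nearest to each member called in both lines. Sequences are RefSeq's. Alternatives were other thresholds, floors, scalings, probe set choices and limma settings.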

Additional observations from a re-analysis of the deposited data

Results flagged for a closer look

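In 7 of the 10 genes a difference had opposite signs in the states or lines compared, each side resting on single arrays, so the difference between the signs was not tested. U2-OS minus HOS was -0.29 without OGE and 0.05 with it for ATF4, and -0.51 and 1.15 for DDIT3. The same pair of values was -0.21 and 0.35 for CEBPB, -0.05 and 0.51 for CEBPG and -0.42 and 0.71 for TRIB3. ATF5 went the other way, with 0.07 without OGE and -0.25 with it. The change of ATF6 with OGE was 0.01 in HOS and -0.05 in U2-OS, which are at most a few rounding steps of 0.01.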

How the results depend on the processing

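The labels give no replicate numbers. Limma compared OGE with control over both lines together, with cell line as a term, and gave no p within a line. By size, 5 of the 10 genes were called in HOS at 1.5-fold and 1 at 3-fold, against 2 at 2-fold; at 3-fold 3 were called in U2-OS, against 6, and 1 between the lines, against 2, as a stricter threshold must give. For OGE, limma called 1 gene of the 10 after quantile normalization, against 0, and for the lines 3 after it, 2 after cyclic loess, 2 with trend and robust moderation, 2 with only genes at the median level and 0 without OGE as a term, against 1; the cause was not tested. Over the alternatives, single genes of the 10 gained a call 14 times, lost one 6 times and reversed 0 times; the mean of probe sets could move ATF4 alone. Over all genes, 1939 and 48 were called in HOS at 1.5-fold and 3-fold against 440, 3296 and 293 in U2-OS against 1245, and 1774 and 206 between the lines against 683, where a floor at the 75th percentile gave 445. Limma called 264 genes for OGE after quantile normalization and 1 with trend and robust moderation, against 0. Between the lines limma called 1763, 1326, 1309, 658 and 131 genes after quantile normalization, after cyclic loess, with trend and robust moderation, at the median level only and without OGE as a term, against 354. The median change of all genes moved by under 0.1 with either scaling. The other ATF4 probe set and the alternatives for the difference of the responses were chosen after seeing the data. The latter gave 8, 7 and 7 genes with the larger signed change in U2-OS, against 7.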
